A study of Homo sapiens with 14 samples.

Results

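The DNA replication machinery was followed here as a set of 47 genes in CWR22Rv1 cells, a human prostate cancer line. The genes were chosen by symbol (by Entrez identifier in the table of SGN-2FF) from 27819 genes that all 4 deposited count tables share, and were grouped by the step they serve: origin licensing, the replicative helicase, the polymerases, the sliding clamp with the factors around it, and deoxynucleotide synthesis. All 47 were found in every table. RNA sequencing had been done on cells exposed for 3 days to DMSO, the solvent control (3 libraries), to Fucotrim I at 30 μM (3 libraries), to Fucotrim II at 60 μM (2 libraries analysed), to SGN-2FF at 100 μM (3 libraries) or to P-SiaFNEtoc at 2 μM (3 libraries). Fucotrim I and Fucotrim II are rhamnose-1-phosphate derivatives aimed at GDP-mannose dehydratase, the entry enzyme of fucose synthesis. SGN-2FF is 2-fluorofucose, which is turned into a competitive inhibitor of fucosyltransferases, and P-SiaFNEtoc is a carbamate inhibitor of sialyltransferases. The doses differ between inhibitors, so each inhibitor was set against DMSO and the values are given side by side. All 4 comparisons use the same 3 DMSO libraries.

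Chromosomal DNA is copied only from origins that were licensed in G1, when the origin recognition complex (ORC), CDC6 and CDT1 load the MCM helicase onto DNA. The kinase CDC7 with DBF4, and then CDC45 and GINS, turn the loaded MCM ring into a working helicase in S phase. Polymerase alpha with primase lays down primers, polymerases epsilon and delta extend them on the clamp PCNA, which RFC loads, and RPA covers the single strands. Many of these genes are transcribed in G1 and S phase under E2F factors, so their messenger RNA is high in growing tumour cells and low in resting prostate epithelium.

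The libraries held 12553094 to 19981314 assigned counts each, and every member had at least 222 counts in every library. Levels are given as CPM, a gene's share of the counts of its library in parts of 1e+06, after TMM scaling over all 14 libraries, and per transcript length as FPKM where genes are compared with each other. The median coefficient of variation of a member among the DMSO libraries was 3.71% (0.527% to 10.3%). Members together took 0.681% to 0.687% of all counts in the DMSO libraries. That share was 0.551% to 0.602% with Fucotrim I, 0.474% to 0.510% with Fucotrim II, 0.634% to 0.648% with SGN-2FF and 0.640% to 0.658% with P-SiaFNEtoc, so no treated library reached the DMSO range. The total includes counts from the mitochondrial genome, which lower the share of every other gene. These took 5.98% to 7.03% of counts in DMSO, and up to 14.2% with Fucotrim I and 17.0% with Fucotrim II.

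With Fucotrim I, 33 of the 47 members fell and 2 rose (quasi-likelihood test of edgeR, p-values adjusted over all genes tested by the Benjamini-Hochberg method, adjusted p under 0.05). Among all 14188 genes tested, 22.1% fell and 21.6% rose. With Fucotrim II, 37 members fell and 1 rose, while 25.7% of 14617 genes fell and 25.6% rose. With SGN-2FF, 5 members fell and 1 rose, against 9.08% and 11.5% of 14312 genes. With P-SiaFNEtoc, 12 members fell and 1 rose, against 7.33% and 9.02% of 14259 genes. The share of members that fell was therefore above the share of all genes in the comparisons with Fucotrim I, Fucotrim II and P-SiaFNEtoc, and near it for SGN-2FF. The median log2 fold change over the members was -0.20 with Fucotrim I, -0.43 with Fucotrim II, -0.07 with SGN-2FF and -0.09 with P-SiaFNEtoc. Over all genes tested the medians were 0.00, 0.01, 0.00 and 0.00. Since the RNA came from whole cultures, fewer cells in S phase and less RNA per cell cannot be told apart. In the libraries themselves, scaled within each comparison, every Fucotrim I library lay below every DMSO library for 35 members and above for 2, where 28.3% and 24% of all genes did so. With Fucotrim II these counts were 40 and 1, against 34.7% and 33% of all genes. With SGN-2FF they were 18 and 2, against 19.2% and 17.2%, and with P-SiaFNEtoc 24 and 1, against 17% and 16.8%. The CPM values given below are scaled over all 14 libraries, where FEN1 and MCM7 just touch the DMSO range with a Fucotrim.

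**Figure D1:**
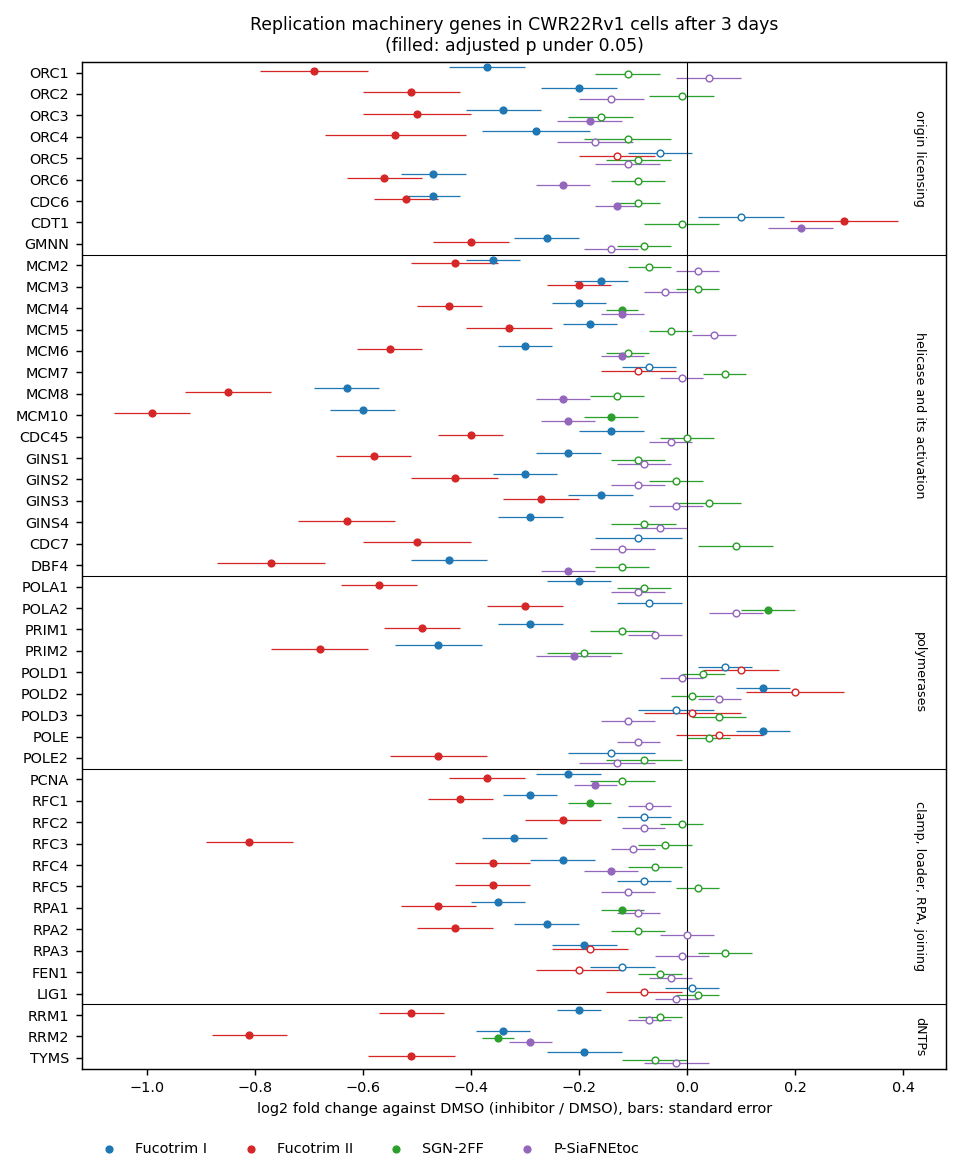
Log2 fold change of each of the 47 genes against DMSO for the 4 inhibitors, with standard errors from edgeR, ordered by role; filled points had an adjusted p under 0.05. Fucotrim II points lie farthest to the left for most genes, with MCM10 at -0.99, while the Fucotrim II points of the polymerase delta genes and CDT1 lie right of 0.

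The counts for SGN-2FF and P-SiaFNEtoc rest on small changes and moved with single libraries. For SGN-2FF, 2 members fell without library 1 or library 2 of that group, and 10 fell when genes with low counts were kept. For P-SiaFNEtoc, 6 members fell without library 1 or 2 of that group or without DMSO library 3. In the plot of every library against the DMSO mean, the losses with both Fucotrims run through most of the helicase and licensing genes, and RRM2 is among the genes that lie below DMSO in all 11 treated libraries.

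**Figure D2:**
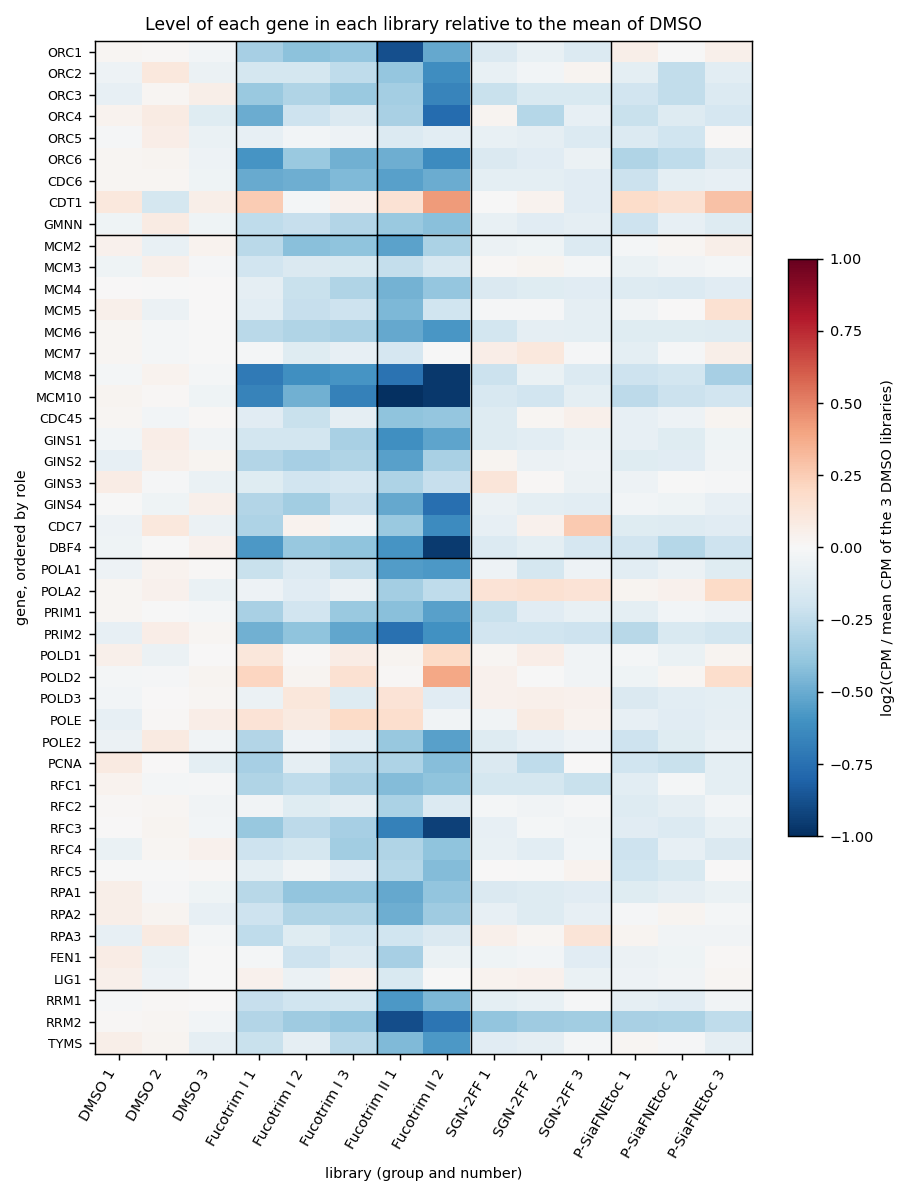
Each square is the log2 ratio of a gene's CPM in 1 library to its mean over the 3 DMSO libraries, for the 47 genes by role and the 14 libraries by group; blue is lower and red higher. The Fucotrim I and Fucotrim II columns are blue for most genes, CDT1 and POLD2 show red there, and the SGN-2FF and P-SiaFNEtoc columns are pale.

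Because these genes are known targets of E2F factors and of the CCAAT-binding factor NF-Y, the sequences before their transcription starts were examined. RefSeq (GRCh38.p14) holds promoter entries, 250 bases before to 50 after a start, for 41 of the 47 genes, with 52 entries in all. GINS4, MCM4, MCM5, POLD3, RPA2 and RPA3 had none. An exact E2F site in either of the forms TTTCCCGC or TTTGGCGC, on either strand, was present in 36.5% of the members' entries (19 of 41 genes), in 2.27% of all 35116 entries and in 3.26% of the entries of genes tested. The letters CCAAT on either strand were present in 55.8% of the members' entries (24 genes), against 34.6% of all entries and 34.7% of those of genes tested. A match in these letters is a description of the sequence and not evidence of binding. Of the 19 genes with an exact E2F match, 13 fell under Fucotrim I, 15 under Fucotrim II and 5 under P-SiaFNEtoc (edgeR, adjusted p under 0.05), and CDT1, which rose with Fucotrim II, is among them. Of the other 28 members, 20, 22 and 7 fell, so both sets fell in like shares. These 28 include the 6 genes without an entry, which could not be searched for a match. With SGN-2FF 5 of those 28 fell, and 0 of the 19 fell by edgeR's test (4 at an unadjusted p under 0.05, 0 by DESeq2 or limma-voom, 2 by limma-voom with quality weights). The 150 bases before the start are shown for 7 genes whose levels are described below, read 5′ to 3′ on the strand of the gene, with exact E2F letters and CCAAT letters, or their reverse complements, in capitals. Where RefSeq gives several starts (GMNN, PCNA, RRM2), the start with matches to both, or with most CCAAT, is shown, and every window ends at the base before the start.
CDC6 (chr17:40287729-40287878, plus strand): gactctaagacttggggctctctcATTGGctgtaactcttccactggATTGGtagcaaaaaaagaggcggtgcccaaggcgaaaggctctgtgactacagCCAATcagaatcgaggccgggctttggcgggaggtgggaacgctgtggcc
CDT1 (chr16:88803639-88803788, plus strand): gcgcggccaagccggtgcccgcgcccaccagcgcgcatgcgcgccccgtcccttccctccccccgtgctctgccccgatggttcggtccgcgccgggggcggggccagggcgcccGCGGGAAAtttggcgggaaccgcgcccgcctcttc
GMNN (chr6:24775263-24775412, plus strand): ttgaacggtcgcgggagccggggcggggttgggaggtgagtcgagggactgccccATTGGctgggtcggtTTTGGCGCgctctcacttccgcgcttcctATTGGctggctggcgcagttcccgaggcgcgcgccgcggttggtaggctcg
MCM6 (chr2:135876444-135876593, minus strand): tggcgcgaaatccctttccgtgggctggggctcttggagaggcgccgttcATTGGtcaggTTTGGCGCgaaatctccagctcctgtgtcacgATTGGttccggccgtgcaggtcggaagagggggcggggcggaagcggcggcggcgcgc
MCM10 (chr10:13161408-13161557, plus strand): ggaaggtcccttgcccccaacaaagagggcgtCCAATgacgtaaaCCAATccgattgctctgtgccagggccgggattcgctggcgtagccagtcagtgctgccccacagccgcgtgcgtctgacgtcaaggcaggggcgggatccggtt
PCNA (chr20:5126623-5126772, minus strand): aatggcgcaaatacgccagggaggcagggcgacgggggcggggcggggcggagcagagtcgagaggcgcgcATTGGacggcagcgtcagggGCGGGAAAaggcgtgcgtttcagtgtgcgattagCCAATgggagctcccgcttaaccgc
RRM2 (chr2:10122589-10122738, plus strand): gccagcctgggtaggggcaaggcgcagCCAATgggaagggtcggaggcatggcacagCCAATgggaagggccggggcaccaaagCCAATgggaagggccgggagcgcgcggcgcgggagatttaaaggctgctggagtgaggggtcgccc
No matches overlap each other in these windows. There GMNN, MCM6 and PCNA hold both kinds of letters, CDC6, MCM10 and RRM2 hold CCAAT only, and CDT1 holds an E2F match only. CDC6 is still among the 19 genes with an exact E2F match. Its TTTGGCGC lies 7 bases after the start, past the end of the window shown.

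Origin licensing genes fell with both Fucotrims, apart from ORC5 and CDT1. Of the 9 genes, 7 fell with Fucotrim I (median log2 fold change -0.28), and 7 fell and 1 rose with Fucotrim II (median -0.51). Of all genes tested, 22.1%, 25.7%, 9.08% and 7.33% fell with Fucotrim I, Fucotrim II, SGN-2FF and P-SiaFNEtoc. In the same order, 21.6%, 25.6%, 11.5% and 9.02% rose. With SGN-2FF 0 of the 9 passed edgeR's test (2 were lower at an unadjusted p under 0.05, 0 passed by DESeq2 or limma-voom, and 1 fell by limma-voom with quality weights), and with P-SiaFNEtoc 3 fell (ORC3, ORC6 and CDC6) and 1 rose (CDT1). CDC6, the ATPase that joins ORC at the origin to load MCM, was at 138, 138 and 132 CPM in DMSO, 95.9, 97.2 and 100.3 with Fucotrim I, 93.7 and 96.6 with Fucotrim II, 127, 127 and 126 with SGN-2FF and 117, 127 and 128 with P-SiaFNEtoc. Every treated library lay below the DMSO libraries, and the Fucotrim libraries stood well apart from the others. The log2 fold change of CDC6 was -0.47 ± 0.05 (SE, edgeR adjusted p = 4.81e-07) with Fucotrim I and -0.52 ± 0.06 (SE, edgeR adjusted p = 0.00015) with Fucotrim II. It was -0.09 ± 0.04 (SE, edgeR adjusted p = 0.125) with SGN-2FF and -0.13 ± 0.04 (SE, edgeR adjusted p = 0.0397) with P-SiaFNEtoc. The P-SiaFNEtoc call was lost without any 1 DMSO library or without library 1 or 2 of P-SiaFNEtoc (adjusted p = 0.0546 to 0.223).

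ORC1, the ORC subunit whose level varies through the cell cycle, was at 38.0, 37.7 and 36.8 CPM in DMSO, 29.7, 28.2 and 28.7 with Fucotrim I, 20.4 and 26.3 with Fucotrim II, 33.8, 35.5 and 34.1 with SGN-2FF and 38.9, 37.4 and 38.9 with P-SiaFNEtoc. The ranges of both Fucotrims lay below DMSO, with Fucotrim II library 1 the lowest, and P-SiaFNEtoc overlapped DMSO. The changes were -0.37 ± 0.07 (SE, edgeR adjusted p = 0.000181) with Fucotrim I and -0.69 ± 0.10 (SE, edgeR adjusted p = 0.000578) with Fucotrim II. ORC6, the smallest subunit of the complex, was at 75.0, 75.3 and 71.2 CPM in DMSO, 49.0, 57.2 and 52.8 with Fucotrim I, 52.6 and 47.8 with Fucotrim II, 66.9, 68.4 and 70.8 with SGN-2FF and 59.9, 62.0 and 66.9 with P-SiaFNEtoc. It was below DMSO in all 11 treated libraries. ORC6 changed by -0.47 ± 0.06 (SE, edgeR adjusted p = 6.17e-06), -0.56 ± 0.07 (SE, edgeR adjusted p = 0.000242) and -0.23 ± 0.05 (SE, edgeR adjusted p = 0.00185) with Fucotrim I, Fucotrim II and P-SiaFNEtoc on the log2 scale. ORC2, ORC3 and ORC4 fell with both Fucotrims, with log2 fold changes of -0.20 ± 0.07 to -0.34 ± 0.07 (SE) with Fucotrim I and -0.50 ± 0.10 to -0.54 ± 0.13 with Fucotrim II. ORC5 did not pass the test with any inhibitor, with log2 fold changes from -0.13 to -0.05. With GC content and length offsets, described further on, ORC2 and ORC4 no longer passed with Fucotrim I (adjusted p = 0.779 and 0.708), nor did ORC4 with Fucotrim II (adjusted p = 0.309). Leaving out 1 library ended the Fucotrim I calls on ORC2 (DMSO 2 or Fucotrim I library 3, adjusted p = 0.139 and 0.0888) and ORC4 (DMSO 1 or 2 or Fucotrim I library 1, adjusted p = 0.0722 to 0.15), and the P-SiaFNEtoc call on ORC3 (DMSO 2 or 3 or P-SiaFNEtoc library 1 or 2, adjusted p = 0.0758 to 0.149). ORC3 passed with SGN-2FF without DMSO 1 (adjusted p = 0.0396).

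CDT1, which brings the MCM ring to the origin, and GMNN, which encodes geminin, the protein that holds CDT1 inactive after S phase begins, went opposite ways with Fucotrim II. CDT1 was at 165, 136 and 159 CPM in DMSO, 183, 151 and 158 with Fucotrim I, 169.9 and 206 with Fucotrim II, 153, 157 and 142 with SGN-2FF and 174, 170.2 and 187 with P-SiaFNEtoc. The DMSO libraries were widely spread for this gene, and the libraries of Fucotrim II and P-SiaFNEtoc lay above all of them. Its log2 fold change was 0.29 ± 0.10 (SE, edgeR adjusted p = 0.0383) with Fucotrim II and 0.21 ± 0.06 (SE, edgeR adjusted p = 0.0252) with P-SiaFNEtoc, and 0.10 ± 0.08 (SE, edgeR adjusted p = 0.344) with Fucotrim I. GMNN was at 75.4, 82.3 and 75.2 CPM in DMSO, 65.1, 66.2 and 63.4 with Fucotrim I, 60.2 and 58.1 with Fucotrim II, 73.9, 71.6 and 73.0 with SGN-2FF and 67.4, 73.2 and 70.9 with P-SiaFNEtoc. Geminin transcripts were below DMSO in all 11 treated libraries and fell with Fucotrim I (-0.26 ± 0.06 SE, edgeR adjusted p = 0.00147) and Fucotrim II (-0.40 ± 0.07 SE, edgeR adjusted p = 0.00138). Without DMSO 1, GMNN also passed with P-SiaFNEtoc (adjusted p = 0.0491). The rise of CDT1 was not stable. With Fucotrim II it was lost without any 1 of the DMSO libraries (edgeR adjusted p = 0.0529 to 0.164). Without Fucotrim II library 2, which leaves 1 library of that group, its log2 fold change was 0.14. With P-SiaFNEtoc it was lost without library 1 or 3 of that group (adjusted p = 0.0901 and 0.207). With GC content and length offsets CDT1 was -0.15 (adjusted p = 0.0664) with Fucotrim II and 0.10 (adjusted p = 0.0665) with P-SiaFNEtoc.

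The helicase genes moved together with both Fucotrims. Of 15 genes, 13 fell with Fucotrim I (median log2 fold change -0.22) and 14 with Fucotrim II (median -0.44), and 0 rose in any of the 4 comparisons by edgeR, DESeq2 or limma-voom, or at an unadjusted p under 0.05. MCM7 was the gene that did not fall with Fucotrim II. With SGN-2FF 2 fell, MCM4 and MCM10, and with P-SiaFNEtoc 5 fell, MCM4, MCM6, MCM8, MCM10 and DBF4. Of all genes tested, 22.1%, 25.7%, 9.08% and 7.33% fell with Fucotrim I, Fucotrim II, SGN-2FF and P-SiaFNEtoc. The helicase share with SGN-2FF, 13.3%, was near that of all genes. MCM10, a scaffold that is needed when the helicase is activated and that links it to polymerase alpha, had the lowest fold change of all 47 genes with Fucotrim II. It was at 86.1, 85.2 and 81.9 CPM in DMSO, 53.2, 60.4 and 52.9 with Fucotrim I, 42.4 and 43.2 with Fucotrim II, 75.6, 73.7 and 79.0 with SGN-2FF and 70.3, 72.9 and 73.7 with P-SiaFNEtoc. All 11 treated libraries lay below DMSO, and both Fucotrim II libraries averaged 50.7% of the DMSO mean. The log2 fold changes were -0.60 ± 0.06 (SE, edgeR adjusted p = 2.45e-07), -0.99 ± 0.07 (SE, edgeR adjusted p = 1.01e-05), -0.14 ± 0.05 (SE, edgeR adjusted p = 0.0412) and -0.22 ± 0.05 (SE, edgeR adjusted p = 0.00128) with Fucotrim I, Fucotrim II, SGN-2FF and P-SiaFNEtoc. MCM8, which works with MCM9 in recombination rather than in the core ring, was at 85.2, 88.4 and 85.1 CPM in DMSO, 52.9, 56.3 and 57.3 with Fucotrim I, 51.6 and 44.2 with Fucotrim II, 74.1, 82.3 and 78.5 with SGN-2FF and 74.8, 76.1 and 68.6 with P-SiaFNEtoc. It followed the order of MCM10, with every treated library below DMSO. Its log2 fold changes were -0.63 ± 0.06 (SE, edgeR adjusted p = 4.14e-08) with Fucotrim I and -0.85 ± 0.08 (SE, edgeR adjusted p = 4.6e-05) with Fucotrim II. A gene without a symbol on the same strand overlaps 33.3% of the exon bases of MCM8, so its counts are less certain. The SGN-2FF call on MCM10 was lost without DMSO 1 or 2 or SGN-2FF library 1 or 2 (adjusted p = 0.0722 to 0.199).

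The 6 subunits of the MCM ring did not fall evenly. MCM6 was at 148, 144 and 146 CPM in DMSO, 121, 119 and 117 with Fucotrim I, 103 and 97.6 with Fucotrim II, 129, 137 and 137 with SGN-2FF and 135, 135 and 134 with P-SiaFNEtoc. MCM4 was at 459, 457 and 462 CPM in DMSO, 432, 393 and 373 with Fucotrim I, 330.4 and 350.2 with Fucotrim II, 414, 422 and 423 with SGN-2FF and 421, 418 and 424 with P-SiaFNEtoc. For both, all 11 treated libraries lay below DMSO, and Fucotrim II was lowest. MCM2 was at 344, 318 and 343 CPM in DMSO, 279, 251 and 254 with Fucotrim I, 231 and 268 with Fucotrim II, 321, 325 and 305 with SGN-2FF and 330.0, 339.7 and 349 with P-SiaFNEtoc. MCM5 was at 222, 205 and 215 CPM in DMSO, 199, 183 and 185 with Fucotrim I, 157 and 186 with Fucotrim II, 212, 212 and 201 with SGN-2FF and 209, 215 and 238 with P-SiaFNEtoc. For this pair the Fucotrim libraries lay below DMSO while the SGN-2FF and P-SiaFNEtoc libraries overlapped it. MCM3 was at 189, 201 and 193 CPM in DMSO, 170.2, 176 and 175 with Fucotrim I, 165 and 174 with Fucotrim II, 197, 198 and 192 with SGN-2FF and 186, 190.0 and 192 with P-SiaFNEtoc. MCM7 was at 647, 629 and 638 CPM in DMSO, 629, 585 and 603 with Fucotrim I, 567 and 637 with Fucotrim II, 669, 688 and 632 with SGN-2FF and 597, 634 and 663 with P-SiaFNEtoc. MCM7 was the most abundant member per length and overlapped DMSO in all 4 comparisons, only just with Fucotrim I. With Fucotrim II the log2 fold changes of the ring ran from -0.55 ± 0.06 (SE, edgeR adjusted p = 0.00012) for MCM6, -0.44 ± 0.06 (SE, edgeR adjusted p = 0.000306) for MCM4 and -0.43 ± 0.08 (SE, edgeR adjusted p = 0.00141) for MCM2 through -0.33 ± 0.08 (SE, edgeR adjusted p = 0.00756) for MCM5 and -0.20 ± 0.06 (SE, edgeR adjusted p = 0.0206) for MCM3 to -0.09 ± 0.07 (SE, edgeR adjusted p = 0.288) for MCM7. With Fucotrim I, MCM2 changed most, by -0.36 ± 0.05 (SE, edgeR adjusted p = 1.62e-05), and MCM7 least, by -0.07 ± 0.05 (SE, edgeR adjusted p = 0.22). With P-SiaFNEtoc, MCM4 changed by -0.12 ± 0.04 (SE, edgeR adjusted p = 0.0227) and MCM6 by -0.12 ± 0.04 (SE, edgeR adjusted p = 0.0439). These calls were lost without DMSO 1 or 3 or P-SiaFNEtoc library 1 or 2 (adjusted p = 0.0523 to 0.13), that of MCM6 also without P-SiaFNEtoc library 3 (adjusted p = 0.0619), and the SGN-2FF call on MCM4 (-0.12 ± 0.03) without SGN-2FF library 1 or 2 (adjusted p = 0.0668 and 0.0594). Leaving out a library ended the calls on MCM3 (Fucotrim I without DMSO 2, adjusted p = 0.0627; Fucotrim II without any 1 DMSO library, adjusted p = 0.0607 to 0.095) and on MCM5 (Fucotrim I without DMSO 1, adjusted p = 0.0642). MCM7 had a log2 fold change of -0.18 with Fucotrim II once library 2 was left out, a fit with 1 Fucotrim II library. It rose with SGN-2FF without library 3 of that group (0.10, adjusted p = 0.0425). An unnamed gene on the opposite strand overlaps 23.6% of the exon bases of MCM2.

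The partners of the ring were lower as well. CDC45, which binds MCM and GINS to make the active helicase, was at 102, 98.8 and 101 CPM in DMSO, 92.9, 86.5 and 94.8 with Fucotrim I, 76.0 and 76.9 with Fucotrim II, 92.2, 102 and 105 with SGN-2FF and 95.2, 97.3 and 103 with P-SiaFNEtoc. Both Fucotrim II libraries lay well below DMSO. CDC45 changed by -0.40 ± 0.06 (SE, edgeR adjusted p = 0.000597) with Fucotrim II and by -0.14 ± 0.06 (SE, edgeR adjusted p = 0.0483) with Fucotrim I on the log2 scale. GINS2, a subunit of the GINS ring, was at 69.9, 76.5 and 75.4 CPM in DMSO, 60.3, 58.9 and 60.1 with Fucotrim I, 50.8 and 59.1 with Fucotrim II, 75.3, 71.2 and 71.3 with SGN-2FF and 67.9, 68.2 and 72.0 with P-SiaFNEtoc. It was below DMSO with both Fucotrims and overlapped DMSO with the other inhibitors. GINS2 changed by -0.30 ± 0.06 (SE, edgeR adjusted p = 0.000297) with Fucotrim I and -0.43 ± 0.08 (SE, edgeR adjusted p = 0.00189) with Fucotrim II, and all of GINS1 to GINS4 fell with both, with GINS4 lowest under Fucotrim II at -0.63 ± 0.09. DBF4, the activating subunit of the CDC7 kinase, fell with Fucotrim I (-0.44 ± 0.07 SE, edgeR adjusted p = 1.66e-05), Fucotrim II (-0.77 ± 0.10 SE, edgeR adjusted p = 0.000297) and P-SiaFNEtoc (-0.22 ± 0.05 SE, edgeR adjusted p = 0.00271). CDC7, the kinase itself, was at 36.6, 40.9 and 36.4 CPM in DMSO, 30.6, 38.9 and 37.3 with Fucotrim I, 29.3 and 24.6 with Fucotrim II, 35.9, 39.1 and 45.5 with SGN-2FF and 35.0, 34.7 and 35.2 with P-SiaFNEtoc. Only the Fucotrim II libraries and the P-SiaFNEtoc libraries all lay below DMSO, and CDC7 fell with Fucotrim II (-0.50 ± 0.10 SE, edgeR adjusted p = 0.00258). SGN-2FF library 3 was the highest of all for CDC7. The Fucotrim I calls on CDC45 and GINS3 were fragile. That on CDC45 was lost without DMSO 1, 2 or 3 or without Fucotrim I library 1 or 2 (adjusted p = 0.0533 to 0.142), and that on GINS3 without DMSO 1 or 2 or Fucotrim I library 2 or 3 (adjusted p = 0.0782 to 0.204). With Fucotrim II, GINS3 was not called without DMSO 1 (adjusted p = 0.0637). The Fucotrim I call on GINS1 was lost with GC content and length offsets.

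**Figure D3:**
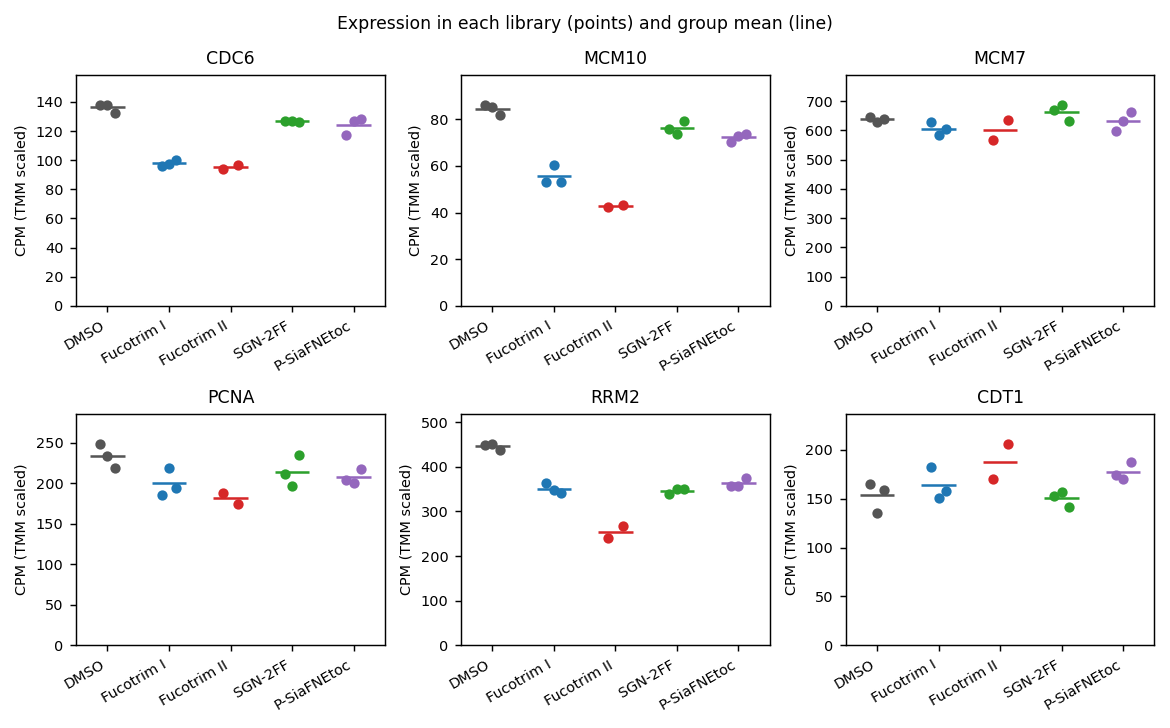
CPM of 6 genes in each of the 14 libraries (points) with the group mean (line), each axis starting at 0. CDC6, MCM10 and RRM2 separate all Fucotrim libraries from DMSO, MCM7 stays near its DMSO level, and for CDT1 the Fucotrim II and P-SiaFNEtoc libraries lie above DMSO.

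Polymerases alpha and delta went apart with the Fucotrims, while POLE and POLE2 of polymerase epsilon did not move together. All 4 genes of polymerase alpha and primase fell with Fucotrim II, and 3 of them with Fucotrim I, while 0 of the 3 genes of polymerase delta fell in any of the 4 comparisons by edgeR, DESeq2 or limma-voom (1, POLD3 with P-SiaFNEtoc, at an unadjusted p under 0.05). Of all genes tested, 22.1%, 25.7%, 9.08% and 7.33% fell with Fucotrim I, Fucotrim II, SGN-2FF and P-SiaFNEtoc. With GC content and length offsets, described further on, POLD1 fell with Fucotrim I, Fucotrim II and P-SiaFNEtoc, and POLD2 fell with SGN-2FF. POLA1, the catalytic subunit of polymerase alpha, was at 53.5, 56.8 and 56.0 CPM in DMSO, 47.5, 50.4 and 46.7 with Fucotrim I, 37.7 and 37.2 with Fucotrim II, 53.5, 49.1 and 53.5 with SGN-2FF and 51.5, 53.1 and 50.9 with P-SiaFNEtoc. Both Fucotrims lay below DMSO, and POLA1 changed by -0.20 ± 0.06 (SE, edgeR adjusted p = 0.0142) with Fucotrim I and -0.57 ± 0.07 (SE, edgeR adjusted p = 0.000186) with Fucotrim II. PRIM2, the large primase subunit, was at 27.0, 29.9 and 28.9 CPM in DMSO, 20.5, 21.6 and 19.9 with Fucotrim I, 17.1 and 18.8 with Fucotrim II, 25.0, 24.9 and 24.8 with SGN-2FF and 23.6, 25.7 and 25.1 with P-SiaFNEtoc. It was below DMSO in all 11 treated libraries. PRIM2 fell with Fucotrim I (-0.46 ± 0.08 SE, edgeR adjusted p = 8.43e-05), Fucotrim II (-0.68 ± 0.09 SE, edgeR adjusted p = 0.000284) and P-SiaFNEtoc (-0.21 ± 0.07 SE, edgeR adjusted p = 0.0356), and missed the threshold with SGN-2FF (-0.19 ± 0.07 SE, edgeR adjusted p = 0.051). PRIM1, the catalytic primase subunit, fell with Fucotrim I (-0.29 ± 0.06) and Fucotrim II (-0.49 ± 0.07). POLA2, the second subunit of polymerase alpha, was at 82.0, 83.5 and 77.3 CPM in DMSO, 78.3, 75.0 and 77.8 with Fucotrim I, 63.9 and 67.8 with Fucotrim II, 89.1, 90.0 and 89.1 with SGN-2FF and 82.5, 83.4 and 92.2 with P-SiaFNEtoc. It was above DMSO in all SGN-2FF libraries and below in both Fucotrim II libraries, with log2 fold changes of 0.15 ± 0.05 (SE, edgeR adjusted p = 0.0207) and -0.30 ± 0.07 (SE, edgeR adjusted p = 0.00478). Stretches of 100 bases shared with another gene make up 54.6% of those in POLA2, 19.9% in PRIM1 and 13.4% in PRIM2, so these counts are less certain. The Fucotrim I call on POLA1 was lost without DMSO 2 or 3 or Fucotrim I library 3 (adjusted p = 0.0532 to 0.066) and with GC content and length offsets (adjusted p = 0.486). The rise of POLA2 was lost without DMSO 3 or SGN-2FF library 1 or 2 (adjusted p = 0.0543 to 0.149), and the P-SiaFNEtoc call on PRIM2 was lost without DMSO 2 or 3 or any 1 library of that group (adjusted p = 0.0545 to 0.151), while PRIM2 passed with SGN-2FF without DMSO 1 (adjusted p = 0.0351).

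POLD1, the catalytic subunit of polymerase delta, was at 161, 149 and 155 CPM in DMSO, 168, 156 and 163 with Fucotrim I, 158 and 177 with Fucotrim II, 157, 163 and 152 with SGN-2FF and 153, 148 and 158 with P-SiaFNEtoc. POLD2, its small subunit, was at 286, 288 and 295 CPM in DMSO, 336, 295 and 321 with Fucotrim I, 292 and 378 with Fucotrim II, 299, 288 and 282 with SGN-2FF and 280.4, 294 and 328 with P-SiaFNEtoc. All 3 Fucotrim I libraries lay above the DMSO range for POLD2, library 2 only just, and the Fucotrim II libraries were far apart. POLD2 rose with Fucotrim I (0.14 ± 0.05 SE, edgeR adjusted p = 0.0349) and had 0.20 ± 0.09 (SE, edgeR adjusted p = 0.098) with Fucotrim II, while POLD1 had 0.10 ± 0.07 (SE, edgeR adjusted p = 0.251) and POLD3 0.01 ± 0.09 (SE, edgeR adjusted p = 0.908). POLE, the catalytic subunit of polymerase epsilon, was at 227, 242 and 251 CPM in DMSO, 264, 256 and 274 with Fucotrim I, 269 and 234 with Fucotrim II, 234, 254 and 246 with SGN-2FF and 227, 222 and 225 with P-SiaFNEtoc. POLE2, which ties that enzyme to the helicase, was at 26.7, 29.6 and 27.1 CPM in DMSO, 22.7, 26.8 and 25.8 with Fucotrim I, 21.4 and 19.1 with Fucotrim II, 25.4, 26.2 and 26.9 with SGN-2FF and 24.0, 25.5 and 26.5 with P-SiaFNEtoc. POLE was above DMSO in every Fucotrim I library, while POLE2 overlapped DMSO there and lay below it in both Fucotrim II libraries. POLE rose with Fucotrim I (0.14 ± 0.05 SE, edgeR adjusted p = 0.027) and POLE2 fell with Fucotrim II (-0.46 ± 0.09 SE, edgeR adjusted p = 0.00281). The 2 libraries of Fucotrim II differed for these genes. Without its library 1 the log2 fold changes of POLD1 and POLD2 were 0.18 and 0.38, and without its library 2 that of POLE was 0.15. Each of these fits leaves 1 Fucotrim II library, so only the size of the change is given. POLE passed as lower with P-SiaFNEtoc without DMSO 1 (adjusted p = 0.0468). POLD2 lost its call without any 1 DMSO library or Fucotrim I library 1 or 3 (adjusted p = 0.0733 to 0.116), POLE without DMSO 1 or Fucotrim I library 3 (adjusted p = 0.187 and 0.106), and with GC content and length offsets POLD2 was -0.06 (adjusted p = 0.193) and POLD1 -0.18 (adjusted p = 0.000601) with Fucotrim I.

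Most genes of the clamp and the factors around it fell with both Fucotrims. Of 11 genes, 7 fell with Fucotrim I (median log2 fold change -0.22), 8 with Fucotrim II (median -0.36), 2 with SGN-2FF (RFC1 and RPA1) and 2 with P-SiaFNEtoc (PCNA and RFC4). In the same order, 22.1%, 25.7%, 9.08% and 7.33% of all genes tested fell. PCNA, the sliding clamp, was at 249, 234 and 219 CPM in DMSO, 186, 219.5 and 195 with Fucotrim I, 189 and 174 with Fucotrim II, 211, 197 and 235 with SGN-2FF and 204, 200.5 and 218 with P-SiaFNEtoc. Its libraries were more widely spread than those of most members, and Fucotrim I library 2 just overlapped the lowest DMSO library. PCNA changed by -0.22 ± 0.06 (SE, edgeR adjusted p = 0.00559) with Fucotrim I, -0.37 ± 0.07 (SE, edgeR adjusted p = 0.00241) with Fucotrim II and -0.17 ± 0.04 (SE, edgeR adjusted p = 0.00831) with P-SiaFNEtoc, and had -0.12 ± 0.06 (SE, edgeR adjusted p = 0.211) with SGN-2FF. RFC3, a subunit of the clamp loader, was at 99.7, 101 and 97.5 CPM in DMSO, 76.4, 83.2 and 79.0 with Fucotrim I, 62.2 and 52.1 with Fucotrim II, 93.8, 98.0 and 97.0 with SGN-2FF and 92.2, 90.8 and 94.4 with P-SiaFNEtoc. Both Fucotrim II libraries were far below DMSO, and RFC3 changed by -0.81 ± 0.08 (SE, edgeR adjusted p = 7.62e-05) with Fucotrim II and -0.32 ± 0.06 (SE, edgeR adjusted p = 9.85e-05) with Fucotrim I. RFC1, the largest loader subunit, was at 118, 113 and 114 CPM in DMSO, 93.3, 96.7 and 91.7 with Fucotrim I, 85.4 and 87.2 with Fucotrim II, 102, 102 and 98.9 with SGN-2FF and 107, 114 and 108 with P-SiaFNEtoc. RFC1 was below DMSO with both Fucotrims and with SGN-2FF, at -0.29 ± 0.05 (SE, edgeR adjusted p = 0.000167), -0.42 ± 0.06 (SE, edgeR adjusted p = 0.000478) and -0.18 ± 0.04 (SE, edgeR adjusted p = 0.00411). RFC2, RFC4 and RFC5 fell with Fucotrim II, at log2 fold changes of -0.23 ± 0.07, -0.36 ± 0.07 and -0.36 ± 0.07. The Fucotrim I call on PCNA was lost without Fucotrim I library 3 (adjusted p = 0.0508), its P-SiaFNEtoc call without DMSO 1 or P-SiaFNEtoc library 2 (adjusted p = 0.0726 and 0.0715), and the Fucotrim II call on RFC2 without any 1 DMSO library (adjusted p = 0.0646 to 0.0887). The P-SiaFNEtoc call on RFC4 was lost without DMSO 2 or 3 or P-SiaFNEtoc library 1 or 3 (adjusted p = 0.0708 to 0.193), PCNA passed the test with SGN-2FF without library 3 of that group (adjusted p = 0.00882), and RFC5 with P-SiaFNEtoc without library 3 of that group (adjusted p = 0.0113).

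RPA1 and RPA2, the larger subunits of the single-strand binding protein, fell with Fucotrim I, at log2 fold changes of -0.35 ± 0.05 and -0.26 ± 0.06, and with Fucotrim II, at -0.46 ± 0.07 and -0.43 ± 0.07. RPA3, the smallest subunit, was at 65.0, 73.2 and 67.8 CPM in DMSO, 57.6, 63.0 and 59.7 with Fucotrim I, 59.8 and 62.0 with Fucotrim II, 70.9, 69.5 and 74.9 with SGN-2FF and 69.9, 67.0 and 66.9 with P-SiaFNEtoc. It was below DMSO in every Fucotrim library, and its log2 fold change was -0.19 ± 0.06 (SE, edgeR adjusted p = 0.0196) with Fucotrim I and -0.18 ± 0.07 (SE, edgeR adjusted p = 0.0657) with Fucotrim II. FEN1, the nuclease that trims Okazaki fragments, was at 188, 171 and 178 CPM in DMSO, 177, 156 and 164 with Fucotrim I, 143 and 172 with Fucotrim II, 174, 176 and 166 with SGN-2FF and 172, 174 and 181 with P-SiaFNEtoc. It overlapped DMSO with every inhibitor, only just with Fucotrim II, and did not pass the test with any inhibitor, at -0.12 ± 0.06 (SE, edgeR adjusted p = 0.101) with Fucotrim I and -0.20 ± 0.08 (SE, edgeR adjusted p = 0.0758) with Fucotrim II. LIG1, the ligase that joins those fragments, was near its DMSO level throughout, with log2 fold changes from -0.08 to 0.02. FEN1 passed with Fucotrim I without library 1 of that group (adjusted p = 0.0201). Without Fucotrim II library 2, which leaves 1 library of that group, FEN1, RPA3 and LIG1 had log2 fold changes of -0.34, -0.21 and -0.17. The Fucotrim I call on RPA3 was lost without DMSO 2 or Fucotrim I library 1 or 3 (adjusted p = 0.0702 to 0.123). With SGN-2FF, RPA1 was -0.12 ± 0.04 (SE, edgeR adjusted p = 0.0339), a call that was lost without DMSO 1 or SGN-2FF library 1 or 2 (adjusted p = 0.109 to 0.166).

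The 3 genes of deoxynucleotide synthesis all fell with both Fucotrims, where 22.1% and 25.7% of all genes tested fell. RRM2, the regulated subunit of ribonucleotide reductase, fell with all 4 inhibitors, as MCM4 and MCM10 did. Of these, only RRM2 also fell in all 17 other analyses of each inhibitor. It was at 449, 451 and 438 CPM in DMSO, 365, 348 and 341 with Fucotrim I, 241 and 268 with Fucotrim II, 339.9, 349 and 349.8 with SGN-2FF and 357, 358 and 374 with P-SiaFNEtoc. The 11 treated libraries all lay below the lowest DMSO library. RRM2 changed by -0.34 ± 0.05 (SE, edgeR adjusted p = 6.13e-06) with Fucotrim I, -0.81 ± 0.07 (SE, edgeR adjusted p = 2.38e-05) with Fucotrim II, -0.35 ± 0.03 (SE, edgeR adjusted p = 1.88e-08) with SGN-2FF and -0.29 ± 0.04 (SE, edgeR adjusted p = 1.81e-06) with P-SiaFNEtoc. It had the lowest log2 fold change of the 47 genes with SGN-2FF and with P-SiaFNEtoc. RRM1, the catalytic subunit, fell with Fucotrim I (-0.20 ± 0.04 SE, edgeR adjusted p = 0.00111) and Fucotrim II (-0.51 ± 0.06 SE, edgeR adjusted p = 0.000164) and had -0.05 ± 0.04 and -0.07 ± 0.04 with SGN-2FF and P-SiaFNEtoc. TYMS, thymidylate synthase, was at 52.3, 51.4 and 47.3 CPM in DMSO, 43.1, 47.2 and 41.8 with Fucotrim I, 37.0 and 33.9 with Fucotrim II, 46.6, 47.4 and 49.7 with SGN-2FF and 51.1, 49.8 and 47.4 with P-SiaFNEtoc. Its Fucotrim libraries lay below DMSO, and it changed by -0.19 ± 0.07 (SE, edgeR adjusted p = 0.0293) with Fucotrim I and -0.51 ± 0.08 (SE, edgeR adjusted p = 0.000742) with Fucotrim II. Genes on the opposite strand (ENOSF1 and TYMSOS) overlap 47.9% of the exon bases of TYMS, and the Fucotrim I call was lost without DMSO 1 or 2 or Fucotrim I library 1 or 3 (adjusted p = 0.0742 to 0.141).

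Per transcript length, the members in DMSO covered a range from 3.43 FPKM for ORC4 to 259 FPKM for MCM7, with a median of 37.7 FPKM. MCM7 was followed by PCNA at 183 ± 11.6 FPKM (SD, n = 3) and POLD2 at 180 ± 2.97 FPKM, which did not differ beyond their spread. RRM2 (137 ± 2.21 FPKM), RFC2 (119 ± 2.49 FPKM) and MCM4 (113 ± 0.595 FPKM) came next. Within the MCM ring the levels ran from 39 ± 0.537 FPKM for MCM6 to 259 ± 3.7 FPKM for MCM7, although the ring holds its subunits in equal number. Within ORC they ran from 3.43 ± 0.243 FPKM for ORC4 to 45.7 ± 1.41 FPKM for ORC6. GMNN (61.5 ± 3.2 FPKM) and CDT1 (57.6 ± 5.88 FPKM) did not differ beyond their spread in DMSO. The median FPKM of the members was 31.7 with Fucotrim I, 27.0 with Fucotrim II, 35.5 with SGN-2FF and 35.8 with P-SiaFNEtoc. These levels use the length of 1 canonical transcript per gene, and other isoforms would shift them.

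**Figure D4:**
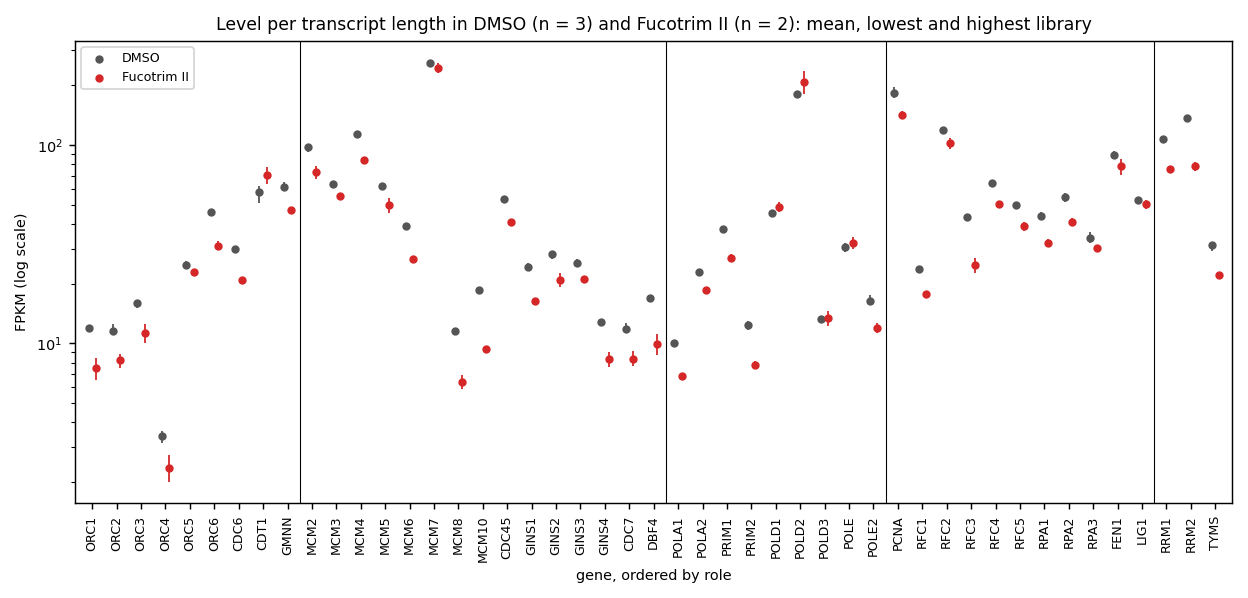
FPKM on a log scale for each of the 47 genes by role, as the mean (point) with the lowest and highest library (line) in DMSO (n = 3) and Fucotrim II (n = 2). Most Fucotrim II points lie below their DMSO point, and MCM7, the polymerase delta genes, POLE and LIG1 lie close to it.

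The change of a member went with the GC content of its transcript. Across the 47 members, Spearman's rho between GC content and log2 fold change was 0.46 with Fucotrim I, 0.61 with Fucotrim II, 0.51 with SGN-2FF and 0.71 with P-SiaFNEtoc. Across all genes with a transcript (13884 to 14293 by comparison) it was 0.47, 0.53, 0.29 and 0.42. These are descriptions across genes of the same libraries, and the genes are not independent. Under 45% GC, 22 of 24 members fell with Fucotrim II (median -0.51), while 48.4% of all such genes fell (median -0.27). At 45 to 50% GC, 8 of 9 members fell, against 26.4% of all genes. At 55% GC and over, 2 of 8 members fell (median -0.01), against 4.29% of all genes (median 0.33). In each class the members' median was below that of all genes. Of the 10 members that did not fall with Fucotrim II, 6 (CDT1, POLD1, POLD2, POLE, LIG1 and MCM7) have over 55% GC and 4 (ORC5, POLD3, RPA3 and FEN1) have less.

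When each library's trend with GC content and transcript length was taken out as an offset, a choice made after the data had been seen, 35 members fell with Fucotrim I, and 40 fell and 1 (POLD3) rose with Fucotrim II. The members' median log2 fold change with Fucotrim II was then -0.34. With SGN-2FF 5 fell and 1 rose, and with P-SiaFNEtoc 12 fell. The shares of all genes given above come from the fits without offsets, so these counts have no matching share beside them. Some genes changed places under the offsets. POLD1 was -0.32 (adjusted p = 0.000241) and MCM7 -0.27 (adjusted p = 0.000531) with Fucotrim II, while MCM10 stayed at -0.79 (adjusted p = 1.48e-06) and RRM2 at -0.62 (adjusted p = 1.72e-05). With P-SiaFNEtoc, LIG1, MCM7, POLD1, POLE and RFC2 came to pass the test and CDC6, DBF4, MCM6, ORC3 and PRIM2 no longer did. With Fucotrim I, CDT1, FEN1, LIG1, MCM7, POLD1 and RFC2 joined the genes that fell, and GINS1, ORC2, ORC4 and POLA1 left them. With Fucotrim II, FEN1, LIG1, MCM7 and POLD1 joined and ORC4 left. With SGN-2FF, MCM2 and POLD2 joined and MCM10 and RPA1 left.

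**Figure D5:**
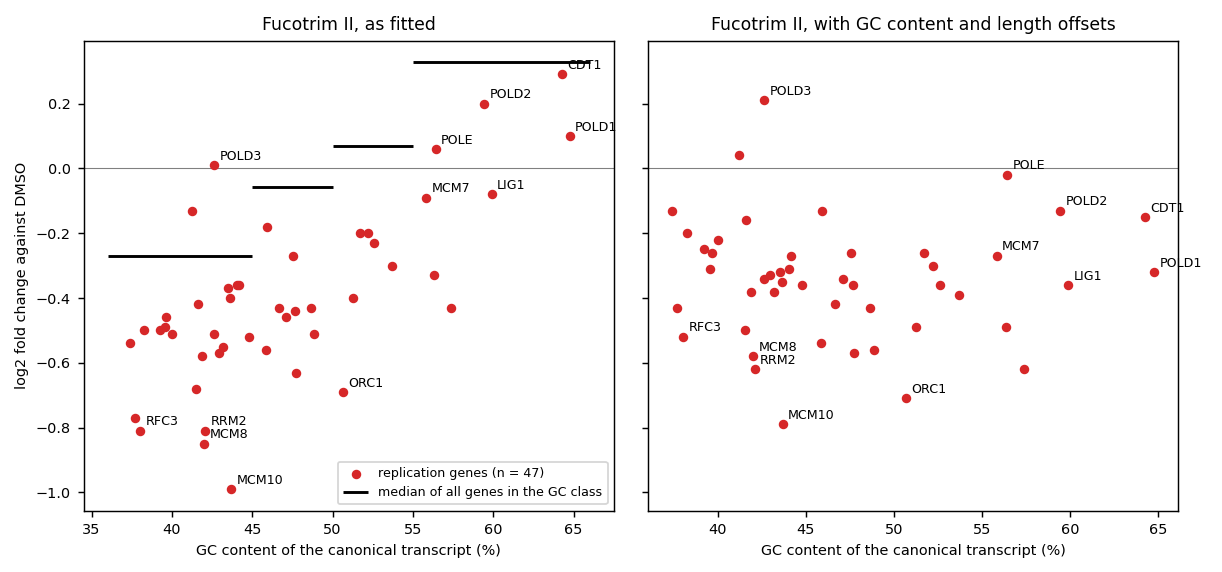
GC content of the canonical transcript (%) against log2 fold change with Fucotrim II for the 47 genes, as fitted (left, with the median of all genes in each GC class as black lines) and with GC content and length offsets (right). On the left the points rise from MCM10 and RFC3 to CDT1 and POLD2, and on the right nearly all lie below 0, with POLD3 the highest.

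Genes that serve the same process outside the 47 fell more often than they rose with the Fucotrims. Of 21 replisome and origin firing factors, 13 fell and 3 rose with Fucotrim I, 14 and 3 with Fucotrim II, 6 and 3 with SGN-2FF, and 10 and 1 with P-SiaFNEtoc. Among all genes tested, 22.1% fell and 21.6% rose with Fucotrim I, and 25.7% and 25.6% with Fucotrim II. These shares were 9.08% and 11.5% with SGN-2FF, and 7.33% and 9.02% with P-SiaFNEtoc. The 3 genes that rose were 14.3% of the list, below the share of all genes with the Fucotrims and near it with SGN-2FF. TOP2A, topoisomerase II alpha, was at 371, 378 and 351 CPM in DMSO, 285, 330.0 and 300.2 with Fucotrim I, 201 and 185 with Fucotrim II, 316, 325 and 329 with SGN-2FF and 313, 303 and 288 with P-SiaFNEtoc. Every treated library lay below DMSO, with changes of -0.93 ± 0.07 (SE, edgeR adjusted p = 1.58e-05) with Fucotrim II and -0.28 ± 0.04 (SE, edgeR adjusted p = 1.55e-05) with P-SiaFNEtoc. CLSPN, which encodes claspin, a fork checkpoint adaptor, changed by -0.80 ± 0.07 (SE, edgeR adjusted p = 2.69e-05) with Fucotrim II, and TIMELESS, a fork protection protein, by -0.39 ± 0.06 (SE, edgeR adjusted p = 0.000499). The 3 that rose with both Fucotrims and with SGN-2FF were POLD4, the smallest polymerase delta subunit, CHTF18, of an alternative clamp loader, and RECQL4, a helicase (named after their values were seen), POLD4 by 0.59 ± 0.09 (SE, edgeR adjusted p = 2.32e-05) with Fucotrim I and 0.84 ± 0.11 (SE, edgeR adjusted p = 0.000228) with Fucotrim II.

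Of 10 further genes of deoxynucleotide supply, 6 fell with Fucotrim I, 7 with Fucotrim II, 2 with SGN-2FF and 2 with P-SiaFNEtoc. In the same order, 22.1%, 25.7%, 9.08% and 7.33% of all genes tested fell. TK1, thymidine kinase, was at 145, 139 and 147 CPM in DMSO, 169.9, 130.1 and 156 with Fucotrim I, 125 and 164 with Fucotrim II, 146, 148 and 138 with SGN-2FF and 142, 141 and 154 with P-SiaFNEtoc. Its libraries overlapped DMSO with every inhibitor, and the log2 fold change with Fucotrim II was 0.00 ± 0.10 (SE, edgeR adjusted p = 0.982). RRM2B, the p53-regulated counterpart of RRM2, changed by -0.42 ± 0.09 (SE, edgeR adjusted p = 0.00303) with Fucotrim II and -0.26 ± 0.06 (SE, edgeR adjusted p = 0.0017) with SGN-2FF. Of 9 chromatin assembly genes, 5 fell with Fucotrim I, 8 with Fucotrim II, 3 with P-SiaFNEtoc and 0 with SGN-2FF (also 0 at an unadjusted p under 0.05 and by DESeq2 or limma-voom). In that order, 22.1%, 25.7%, 7.33% and 9.08% of all genes tested fell by edgeR's test. UHRF1, which carries DNA methylation over to the new strand, changed by -0.47 ± 0.07 (SE, edgeR adjusted p = 0.000535) with Fucotrim II, and CHAF1A, of the histone chaperone CAF-1, by -0.20 ± 0.07 (SE, edgeR adjusted p = 0.0265).

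Of 9 genes that control licensing and entry into S phase, 7 fell with Fucotrim I, 7 with Fucotrim II, 4 with SGN-2FF and 4 with P-SiaFNEtoc. In the same order, 22.1%, 25.7%, 9.08% and 7.33% of all genes tested fell. With Fucotrim I 1 of the 9 rose, CCNE1 (cyclin E1, named after its values were seen), by 0.39 ± 0.10 (SE, edgeR adjusted p = 0.00418), where 21.6% of all genes tested rose. CCNE2, cyclin E2, was at 70.4, 68.3 and 68.8 CPM in DMSO, 51.8, 57.7 and 53.0 with Fucotrim I, 40.7 and 33.4 with Fucotrim II, 55.9, 58.2 and 62.0 with SGN-2FF and 58.2, 58.0 and 57.9 with P-SiaFNEtoc. Every treated library lay below DMSO. CCNE2 changed by -0.35 ± 0.06 (SE, edgeR adjusted p = 0.000107), -0.91 ± 0.09 (SE, edgeR adjusted p = 6.25e-05), -0.22 ± 0.05 (SE, edgeR adjusted p = 0.00269) and -0.25 ± 0.05 (SE, edgeR adjusted p = 0.000492) in the order of the inhibitors above. DTL, which directs the destruction of CDT1 on PCNA-bound chromatin, changed by -0.32 ± 0.05 (SE, edgeR adjusted p = 4.13e-05), -0.61 ± 0.06 (SE, edgeR adjusted p = 6.68e-05), -0.19 ± 0.05 (SE, edgeR adjusted p = 0.00389) and -0.19 ± 0.04 (SE, edgeR adjusted p = 0.00167). CDC25A, the phosphatase that activates CDK2, changed by -0.57 ± 0.07 (SE, edgeR adjusted p = 0.000169) with Fucotrim II.

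Markers of luminal prostate cells went the other way. Their summed level was 2454 to 2565 CPM in DMSO, 3368 to 3441 with Fucotrim I, 3114 to 3400.2 with Fucotrim II, 3064 to 3197 with SGN-2FF and 2860 to 2931 with P-SiaFNEtoc, and 8 of 10 rose with each inhibitor. In the same order of inhibitors, 21.6%, 25.6%, 11.5% and 9.02% of all genes tested rose. KLK3, which encodes prostate-specific antigen, was at 32.3, 31.9 and 27.5 CPM in DMSO, 58.8, 76.6 and 67.9 with Fucotrim I, 48.1 and 44.0 with Fucotrim II, 79.1, 72.4 and 75.6 with SGN-2FF and 47.3, 43.0 and 47.7 with P-SiaFNEtoc. Of 9 markers of other cell types, TP63, KRT5, KRT14, CHGA, PTPRC and PECAM1 stayed at or under 0.379 CPM in every library, and the 9 summed to 125 to 137 CPM in DMSO, 141 to 155 with Fucotrim I, 169 to 189 with Fucotrim II, 123 to 136 with SGN-2FF and 134 to 139 with P-SiaFNEtoc, most of it SYP, a synaptic vesicle protein (named after its values were seen). SYP, listed here as a neuroendocrine marker, was at 109.9, 97.3 and 107 CPM in DMSO, 116, 109.8 and 122 with Fucotrim I, 129.7 and 156 with Fucotrim II, 106, 105 and 94.5 with SGN-2FF and 105, 108 and 108 with P-SiaFNEtoc. Of the 9 markers, 3 had enough counts to be tested. Of these 3, 1 rose with Fucotrim I, 2 with Fucotrim II, 1 with SGN-2FF and 0 with P-SiaFNEtoc by edgeR's test. The share of counts from the mitochondrial genome was 5.98% to 7.03% in DMSO, 8.67% to 14.2% with Fucotrim I, 12.2% to 17.0% with Fucotrim II, 8.27% to 8.69% with SGN-2FF and 6.11% to 6.83% with P-SiaFNEtoc. With mitochondrial genes left out of the counts, 28 members fell with Fucotrim I and 34 with Fucotrim II. The share of all genes that fell in those fits is not given here. The part of the luminal and mitochondrial shifts in the fall of the replication genes was not tested.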

How the data were processed

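Total RNA of CWR22Rv1 cultures, labelled as biological repeats, was made into stranded poly(A) libraries. The authors checked reads with FastQC, trimmed them with Cutadapt, aligned them to hg38 with HISAT2 and deposited raw featureCounts gene counts, with every inhibitor's table holding the 3 DMSO libraries again. The strand setting and annotation of the counting are not given in the sources used here. Fucotrim II has 2 libraries here. Doses and time come from the study's methods.

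Each inhibitor was compared with DMSO by edgeR 4.0.16 (R 4.3.3) with a robust quasi-likelihood fit, TMM scaling, filterByExpr (minimum count 10, total 15) and Benjamini-Hochberg adjustment over all genes tested (threshold 0.05). All p-values measure only the spread between these libraries. The scripts were tested on simulated data. limma 3.58.1 and DESeq2 1.42.0 were alternatives, with other filters, scalings, thresholds and left-out libraries. GC content and length offsets, from canonical GENCODE transcripts, were chosen after seeing the data. The members and lists were chosen with earlier results of these data known. Any member could be named, and some genes are not reported here. Library values were given for 21 members fixed by role and for members with the 3 lowest or 3 highest fold changes with an inhibitor, and genes outside the rule are marked.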

Additional observations from a re-analysis of the deposited data

How the results depend on the processing

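Of the member calls, 22 of 35 with Fucotrim I, 33 of 38 with Fucotrim II, 2 of 6 with SGN-2FF and 4 of 13 with P-SiaFNEtoc were kept in all 17 other analyses of that comparison. For Fucotrim II these include fits that leave 1 library of that group, whose p-values hold no spread between treated libraries. The Fucotrim II group has 2 libraries, and the SGN-2FF and P-SiaFNEtoc changes are near the spread between libraries. Leaving out 1 library gave 25 to 31 lower members with Fucotrim I, 2 to 6 with SGN-2FF and 6 to 10 with P-SiaFNEtoc. In the same order, 0 to 2, 0 to 2 and 0 to 1 were higher. For Fucotrim II, leaving out 1 DMSO library gave 34 to 35 lower and 0 higher members. Fits with 1 Fucotrim II library are not counted. Over all left-out libraries the members' median ran from -0.24 to -0.18 with Fucotrim I and -0.44 to -0.42 with Fucotrim II. It ran from -0.0756 to -0.0534 with SGN-2FF and -0.10 to -0.0699 with P-SiaFNEtoc. With 1 library left out, 1642 to 3109 genes were called with SGN-2FF (2946 with all libraries) and 1516 to 2115 with P-SiaFNEtoc (2331). DESeq2's test called 1942 and 1482 genes, 3 and 7 lower members and, for SGN-2FF, 0 higher members. At an adjusted p under 0.01, edgeR called 1609 and 1171 genes, 2 and 6 lower members, and 0 higher members with any inhibitor. A single fit of all 14 libraries called 1695 and 998 genes, 2 and 4 lower members and 0 higher ones, 1 higher with Fucotrim I and 2 with Fucotrim II, and gave a median of -0.0779 for SGN-2FF. Without a filter 10 members were lower with SGN-2FF (median -0.0756) and 1 was higher with Fucotrim I. Requiring 10 counts in every library, or leaving out mitochondrial genes, gave a Fucotrim II median of -0.42, and without mitochondrial genes 0 members were higher with Fucotrim I. With limma-voom and quality weights 8 members were lower with SGN-2FF and 0 higher with Fucotrim II. The causes of these shifts were not tested.

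The sources used here do not say that a replicate number marks a shared batch, and the correlations do not exclude it. Same-numbered libraries had correlated deviations over 0.1 in only part of the pairs (0.23, 0.28 and 0.03 for Fucotrim I, 0.15, -0.06 and -0.17 for SGN-2FF, -0.07, 0.09 and 0.02 for P-SiaFNEtoc). For Fucotrim II they were -0.32 and -0.42 by the numbers in the titles and 0.42 and 0.17 by those in the library names. With 2 libraries the deviations from the group mean mirror each other, so -0.42 and 0.42 are 1 value with its sign turned. These values cannot choose between the numberings. Differently numbered pairs ran from -0.31 to 0.14 with Fucotrim I, -0.22 to 0.26 with SGN-2FF and -0.13 to 0.13 with P-SiaFNEtoc. With the replicate block by titles, 34 members were lower and 3 higher with Fucotrim I, 34 and 0 with Fucotrim II, 3 and 1 with SGN-2FF and 12 and 1 with P-SiaFNEtoc, and by library names 38 and 1 with Fucotrim II.

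With the GC content and length offsets, chosen after seeing the data, 0 members were higher with Fucotrim I and with P-SiaFNEtoc, and the medians were -0.34 with Fucotrim II, -0.0537 with SGN-2FF and -0.0661 with P-SiaFNEtoc. The share of all genes that rose with the offsets is not given here. The direction turned for LIG1 (-0.15), POLD1 (-0.18), POLD2 (-0.0603) and CDT1 (-0.16) with Fucotrim I, for POLD1 (-0.32) and CDT1 (-0.15) with Fucotrim II and for POLD2 (-0.0798) with SGN-2FF.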
